A study of Homo sapiens with 24 samples.

Results

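LNCaP prostate cancer cells that carried an added ERG were compared directly with LNCaP cells that carried an added ETV1. The members were chosen by title alone: the libraries LNCaP ERG 1 and 2 and LNCaP ETV1 1 and 2, which are 4 of the 24 libraries of the series. All genes in their read count tables were used. Cells were exposed for 48 h to lentivirus bearing ERG, ETV1 or no insert (Empty), kept for 4 days in blasticidin, and harvested for polyA RNA. Duplicates of each group had separate infections, selections and cultures of the same line, so they carry the spread between cultures and not between tumours. The 2 Empty libraries share the vector and the selection and serve here as the level from which ERG and ETV1 cells are read. The other 18 libraries are VCaP cells, a prostate line whose ERG is driven by a TMPRSS2 fusion, and SW13 adrenal carcinoma cells, and 8 of them are used at the end for comparison. Knockdown constructs in VCaP were selected with puromycin and constructs in SW13 with blasticidin and puromycin.

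ERG and ETV1 are transcription factors of the ETS family, which share a DNA-binding domain that reads a GGAA core. ERG belongs with FLI1 and FEV to 1 branch of the family and is normally found in endothelium and blood-forming cells, while ETV1 belongs with ETV4 and ETV5 to the PEA3 branch, whose members act downstream of growth factor and ERK signalling. Chromosomal rearrangements place either gene under androgen-driven promoters in prostate cancer. LNCaP cells respond to androgen and are known to express ETV1 from a rearranged chromosomal copy, so ERG was added to cells that already held ETV1 RNA.

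The promoters of 4 genes with large differences are shown: ADGRF5 and PCDH12 were higher with ERG, and TCN1 and TLE4 were higher with ETV1. They are a choice. IL33 differed more than TLE4 (log2 -4.07 against -3.74), and its window was found but is not printed. Each runs 5′ to 3′ along the gene from 250 bases before to 50 bases after its start, and capitals mark every GGAA core (TTCC where it lies on the other strand). Sequences are RefSeq's on GRCh38.p14, while the counts were made on hg19. The windows are chr6:46954890-46955189 (minus strand) for ADGRF5, chr5:141958153-141958452 (minus strand) for PCDH12, chr11:59866438-59866737 (minus strand) for TCN1 and chr9:79571715-79572014 (plus strand) for TLE4.
ADGRF5: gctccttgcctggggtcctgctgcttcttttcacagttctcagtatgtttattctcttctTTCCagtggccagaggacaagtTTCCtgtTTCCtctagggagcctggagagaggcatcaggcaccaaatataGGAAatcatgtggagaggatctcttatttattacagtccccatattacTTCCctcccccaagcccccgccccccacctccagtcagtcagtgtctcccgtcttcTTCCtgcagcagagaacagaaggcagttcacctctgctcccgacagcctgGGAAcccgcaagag
PCDH12: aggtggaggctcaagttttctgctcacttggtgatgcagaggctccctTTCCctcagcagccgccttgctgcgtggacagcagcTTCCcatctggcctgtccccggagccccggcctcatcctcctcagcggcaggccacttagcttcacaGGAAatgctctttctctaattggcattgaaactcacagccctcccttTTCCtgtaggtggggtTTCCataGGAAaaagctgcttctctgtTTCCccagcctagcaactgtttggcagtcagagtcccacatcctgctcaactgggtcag
TCN1: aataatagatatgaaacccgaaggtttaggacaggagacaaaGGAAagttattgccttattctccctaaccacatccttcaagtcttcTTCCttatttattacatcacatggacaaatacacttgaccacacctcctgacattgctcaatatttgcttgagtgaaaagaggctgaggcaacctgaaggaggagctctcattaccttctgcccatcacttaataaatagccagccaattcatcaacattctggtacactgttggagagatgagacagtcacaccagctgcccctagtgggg
TLE4: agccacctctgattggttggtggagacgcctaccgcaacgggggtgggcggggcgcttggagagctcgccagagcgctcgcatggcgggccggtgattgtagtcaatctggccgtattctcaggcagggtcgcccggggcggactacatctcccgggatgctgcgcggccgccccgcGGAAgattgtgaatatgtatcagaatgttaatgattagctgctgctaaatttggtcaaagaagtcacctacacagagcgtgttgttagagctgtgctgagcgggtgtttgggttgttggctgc
The ADGRF5 and PCDH12 windows each held 7 cores, that of TCN1 2 and that of TLE4 1. Windows were looked up for a chosen part of the leading genes and not for all of them. The printed windows include the highest and the lowest core counts of those found. In the 12 windows found, the counts of the 2 directions overlapped. Of the other genes higher with ERG, KRT75 had 5 and S100P and ARHGDIB 4, and of those lower with ERG, DUSP6 had 6, RGS4 and IL33 4, MMP7 3 and HEG1 2. A core of 4 letters occurs in most windows, and 95.2% of the 11843 promoters found for tested genes held at least 1 on either strand. The longer motif CCGGAAGT, a high-affinity ETS sequence, was in 7.79% of those promoters. Of genes called at least 2-fold higher with ERG it was in 2 of 166 promoters (1.2%), and of those at least 2-fold lower in 1 of 108 (0.926%). The intermediate GGAAGT, which contains GGAA and is contained in CCGGAAGT, was in 26.2% of all promoters, 19.9% of the higher set and 22.2% of the lower set. None of the 4 printed windows holds CCGGAAGT. These are letter matches in short windows and do not show binding.

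The 6 LNCaP libraries held 29349187 (ERG 2) to 41996681 (Empty 2) counted reads. Prostate and LNCaP markers summed to 8133 and 7421 CPM (reads scaled to a common total, here plain library totals and for single genes TMM-scaled totals) with ERG and 6926 and 7795 with ETV1, and all 14 were read in each of those libraries. Fibroblast markers summed to 42.9 and 46.9 CPM with ERG and 38.6 and 42.7 with ETV1. COL1A1 gave most of these reads, with 1201 of 1662 and 786 of 1376 with ERG and 1199 of 1541 and 1408 of 1676 with ETV1. Of the 10 fibroblast markers 7 were tested, with a median log2 difference of 5.29, and 2 were called higher with ERG: DCN, at 32 and 81 reads against 0 and 1, and THY1, at 12 and 31 against 1 and 0. The count was 1 without ERG 2 or either ETV1 library. COL1A2 had 79 and 14 reads with ERG against 0 and 1, LUM had 184 reads in ERG 2 and 8 in ERG 1, and POSTN had 45 reads in ERG 1 and 0 in the other 3 libraries. Leukocyte markers summed to 12.3 and 11.9 CPM with ERG and 11.8 and 8.51 with ETV1, mostly CD68, while the T cell genes CD3D and CD3E had 75 and 43 reads in ETV1 1 against 5 and 4 in ETV1 2. ERG 2 stood apart from ERG 1 by at least 4-fold at 7 genes read at 5 CPM or more, among them IGF2, LUM and MFAP4, and ETV1 2 from ETV1 1 at NDUFA4L2 and PLOD2. The Empty libraries differed from each other in this way at 11 genes higher in Empty 1 and 8 higher in Empty 2. The part of these differences in the results below was not tested beyond the values given without each library.

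The added genes followed the labels. ERG stood at 993 and 953 CPM in the ERG libraries, at 1.02 and 1.16 in the ETV1 libraries and at 0.27 and 0.61 in the Empty libraries. The fitted log2 difference between ERG and ETV1 cells was 9.80 ± 0.11 (standard error; adjusted p = 4.95e-10, edgeR's two-sided quasi-likelihood test, used for every adjusted p below). ETV1 stood at 3817 and 3671 CPM with its construct, 501 and 441 with ERG and 560 and 586 with Empty, a log2 difference of -2.99 ± 0.06 (adjusted p = 3.79e-08). The deposited RPKM values divide by gene lengths of 7684 bases for ERG and 7638 for ETV1. In these values ETV1 with its construct (483 ± 11.4, SD, n = 2) was 3.8 times ERG with its own (127 ± 3.48). The resident ETV1 of Empty cells stood at 75.8 ± 2.1 RPKM, 0.597 of the value of the added ERG. The same length was used for added and resident RNA, whose real lengths were not known. These ratios are thus of reads per gene length and not of transcript numbers. The comparison is between a gene that went from near 0 to its level and a gene raised above a high resident level, at unequal read levels. Reads of construct and chromosome cannot be told apart in these counts, and protein was not measured.

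Of 16993 genes tested, 2441 (14.4%) differed between ERG and ETV1 cells at an adjusted p under 0.05, here named called. Higher with ERG were 1337 (7.87%) and lower 1104 (6.5%), and the median log2 difference of all genes was -0.0003. A difference of at least 2-fold was called for 245 genes higher with ERG (1.44%) and 155 lower (0.912%). The CPM of the ERG and ETV1 libraries did not overlap for many more genes, with both ERG libraries above both ETV1 libraries for 29.1% and below them for 27.7%. Each single library bore on the count, which was 1003 without ETV1 2, 1471 without ERG 1 and 1529 without ETV1 1. Against Empty, ERG cells had 5045 called genes (29.7%, 15.4% higher and 14.3% lower) and ETV1 cells 4439 (26.1%, 13.2% higher and 12.9% lower), but these comparisons share libraries with each other and with the direct one and are given only as values side by side. With library totals as the scale, 64.8% of called genes were higher with ERG, against 54.8% with TMM.

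**Figure D1:**
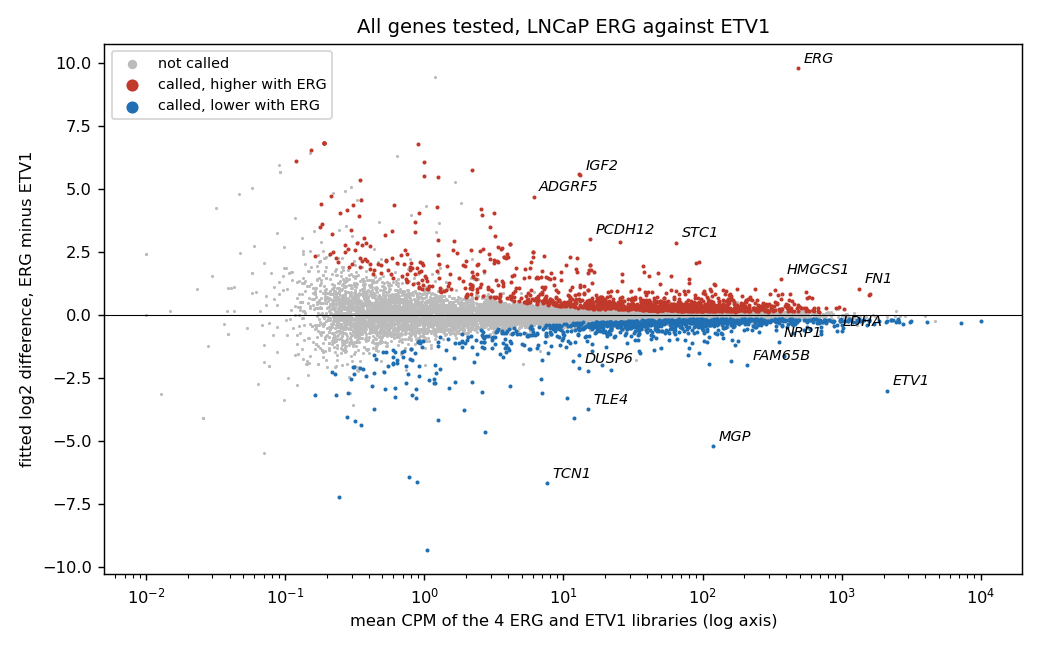
All 16993 genes tested, with the mean CPM of the 4 ERG and ETV1 libraries on a log axis across and the fitted log2 difference (ERG minus ETV1) upward. Red points are the 1337 genes called higher with ERG, blue points the 1104 called lower, and grey points the rest. ERG stands at 9.80 and ETV1 at -2.99, and TCN1 and MGP lie lowest among the labelled genes.

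Among the largest rises with ERG were ADGRF5, PCDH12, S100P and STC1. ADGRF5, an adhesion G protein-coupled receptor found in endothelium and lung, stood at 12.1 and 11.5 CPM with ERG, 0.41 and 0.49 with ETV1 and 0.57 and 0.52 with Empty. Both ETV1 libraries lay at the Empty level, and the difference was 26.1-fold (log2 4.70 ± 0.18, adjusted p = 1.88e-06). PCDH12, a protocadherin of endothelial junctions, stood at 28.0 and 27.5 CPM with ERG, 3.34 and 3.56 with ETV1 and 1.37 and 1.49 with Empty. ETV1 cells were thus above Empty (log2 1.27, adjusted p = 0.000155) but 8.04-fold under ERG cells (3.01 ± 0.10, adjusted p = 8.55e-07). S100P, a calcium-binding protein of secretory epithelia, stood at 52.1 and 37.6 CPM with ERG, 5.76 and 6.17 with ETV1 and 4.60 and 3.69 with Empty (log2 2.91 ± 0.16, adjusted p = 1.32e-05). STC1, the glycoprotein hormone stanniocalcin 1, stood at 119.8 and 108.8 CPM with ERG, 12.6 and 18.6 with ETV1 and 7.26 and 9.43 with Empty (2.87 ± 0.16, adjusted p = 1.26e-05). For these 4 genes the ERG libraries did not overlap with any other LNCaP library.

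APOD, a lipocalin that carries small lipids, stood at 172 and 134 CPM with ERG against 34.0 and 36.0 with ETV1 and 19.3 and 22.4 with Empty, a 4.37-fold difference. KRT75, a keratin of the hair follicle, stood at 10.4 and 9.76 CPM with ERG and 2.32 and 1.73 with ETV1, while the Empty libraries held 0 and 3 reads. ARHGDIB, an inhibitor of small GTPases in blood cells, stood at 16.2 and 17.3 CPM with ERG and 5.63 and 2.71 with ETV1, so the ETV1 duplicates were themselves uneven (log2 2.00 ± 0.30, adjusted p = 0.00318). These 3 genes were also above Empty with ETV1, by log2 0.75 for APOD, 5.68 for KRT75 and 2.36 for ARHGDIB, all called. TRIM43 (23.2 and 14.0 CPM with ERG, 4.21 and 3.38 with ETV1), TRIM43B, PRAMEF14 and PRAMEF15 were called too, but they have near-identical copies between which reads can be split, so their single values are uncertain. IGFBP3, which binds insulin-like growth factors, stood at 127 and 163 CPM with ERG and 35.7 and 32.2 with ETV1, while the Empty libraries spread from 16.3 to 66.4. Its call (log2 2.09 ± 0.47, adjusted p = 0.0188) was lost without ERG 2 (0.0673), without ETV1 1 (0.114) and without ETV1 2 (0.153). IGF2 and the read-through INS-IGF2, which share reads, rest on a single library: IGF2 stood at 51.2 CPM in ERG 2, 0.77 in ERG 1 and 0.46 and 0.62 with ETV1. Without ERG 2 its adjusted p was 0.545.

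Among the largest differences toward ETV1 were MGP, TCN1 and TLE4. MGP, matrix Gla protein, which inhibits calcification, stood at 245 and 216 CPM with ETV1, 6.85 and 5.63 with ERG and 0.77 and 0.73 with Empty, a 36.6-fold difference (log2 -5.19 ± 0.10, adjusted p = 1.62e-08). TCN1, the vitamin B12 carrier haptocorrin, stood at 17.1 and 13.2 CPM with ETV1 and 0.18 and 0.10 with ERG, and both Empty libraries held 0 reads (-6.67 ± 0.28, adjusted p = 7.49e-06). TLE4, a Groucho corepressor, stood at 29.9 and 25.9 CPM with ETV1, 2.09 and 2.10 with ERG and 1.52 and 1.23 with Empty (-3.74 ± 0.13, adjusted p = 1.19e-06). For all 3 genes the lower ETV1 library was more than 10 times the higher ERG library. IL33, a nuclear cytokine, stood at 25.8 and 19.2 CPM with ETV1 and 1.21 and 1.49 with ERG, but its Empty libraries read 0 and 2.20. The call of IL33 was lost without ETV1 1, with DESeq2 and with a robust prior. RGS4, which shortens G protein signalling, stood at 12.7 and 12.3 CPM with ETV1 and 1.60 and 1.29 with ERG. SMCO3 stood at 19.7 and 18.6 CPM with ETV1 and 1.62 and 2.37 with ERG, where Empty cells held 1.69 and 1.84. Of these 6 genes, MGP (log2 3.06), RGS4 (0.88) and TLE4 (0.61) were also called above Empty with ERG, at adjusted p of 1.04e-05, 0.0156 and 0.0263. TCN1 was called there too (5.51 ± 1.25, adjusted p = 0.0132). Its call rests on 7 and 3 reads with ERG against 0 and 0 with Empty, so it is near the floor. IL33 and SMCO3 were not called above Empty with ERG.

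GRAMD1B, a sterol transporter at contacts between membranes, was above Empty in both groups: 24.8 and 24.6 CPM with ETV1, 5.15 and 5.42 with ERG and 0.27 and 0.26 with Empty (ERG minus ETV1, log2 -2.22 ± 0.09, adjusted p = 2.50e-06). DUSP6, the phosphatase that ERK signalling induces against itself, showed the same order, at 21.2 and 20.6, 5.05 and 4.71, and 1.52 and 2.03 CPM. HLF, a bZIP transcription factor, stood at 32.4 and 28.0 CPM with ETV1, and at 8.27 and 7.05 with ERG, near the 6.66 and 7.40 of Empty cells. CD163L1, a scavenger receptor, stood at 19.8 and 16.8 CPM with ETV1 and 5.08 and 5.29 with ERG. These 4 genes were 3.54-fold to 4.67-fold lower with ERG.

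Some leading genes lay on opposite sides of Empty. FAM65B, which restrains a small GTPase, stood at 205 and 228 CPM with Empty, 90.0 and 79.3 with ERG and 335 and 337 with ETV1. It was thus called lower than Empty with ERG (log2 -1.35) and higher with ETV1 (0.63), and differed 3.96-fold between them (adjusted p = 1.55e-06). SEMA6D, a transmembrane semaphorin, stood at 106 and 110 CPM with Empty, 51.2 and 40.8 with ERG and 177 and 178 with ETV1 (ERG minus ETV1, -1.94 ± 0.09, adjusted p = 5.36e-06). MMP7, matrilysin, stood at 2.96 and 3.24 CPM with Empty, 1.98 and 2.07 with ERG and 11.3 and 12.2 with ETV1. HEG1, a junctional receptor, stood at 10.4 and 9.78 CPM with Empty, 7.39 and 8.58 with ERG and 37.9 and 33.4 with ETV1. In each of these 4 genes no library overlapped between the 3 groups, and both contrasts with Empty were called. These were chosen for the order of their values, after those were seen.

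**Figure D2:**
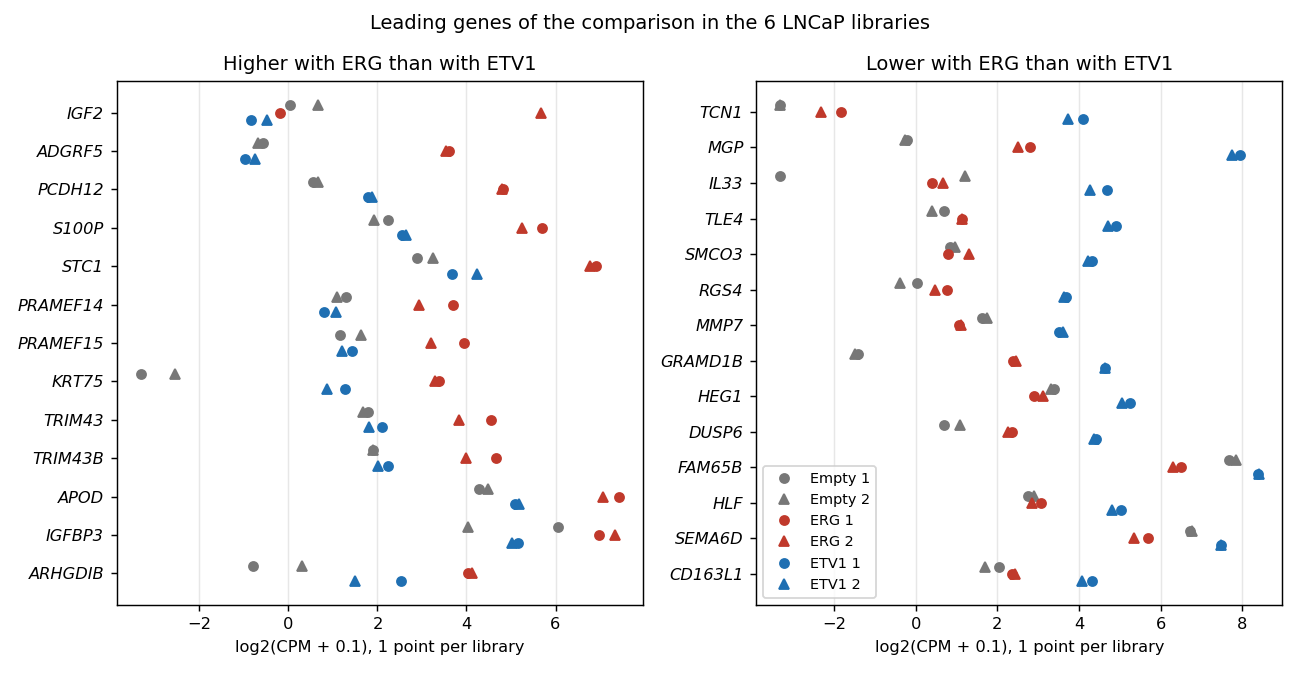
Leading genes higher (left) and lower (right) with ERG than with ETV1, with log2 of CPM plus a small constant across and 1 point per library (Empty grey, ERG red, ETV1 blue; circles and triangles are replicates 1 and 2). ADGRF5 ERG points (12.1 and 11.5 CPM) stand far from the other 4 libraries, MGP ETV1 points (245 and 216 CPM) likewise, and IGF2 is raised in ERG 2 only.

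Gene lists are described by their called members and their median, beside all genes tested (7.87% higher, 6.5% lower, median -0.0003). Cholesterol synthesis and uptake had the largest called share (83.3%) of the lists: 20 of 24 tested members were higher with ERG, none was lower, and the median log2 difference was 0.58. HMGCS1, which makes HMG-CoA, stood at 447 and 618 CPM with ERG, 182 and 213 with ETV1 and 99.8 and 100.05 with Empty (1.43 ± 0.13, adjusted p = 0.000255). INSIG1, the sterol-sensing retention protein, stood at 210 and 268 CPM with ERG, 113 and 119 with ETV1 and 74.4 and 76.5 with Empty (1.04 ± 0.10, adjusted p = 0.000253). FDFT1, which commits the pathway to sterols, stood at 499 and 582, 304 and 307, and 180 and 183 CPM in the same order. For these 3 genes the groups stood in 1 order with no overlap, ERG above ETV1 above Empty. MSMO1, a sterol oxidase, stood at 177 and 215 CPM with ERG, 98.1 and 104 with ETV1 and 60.3 and 66.8 with Empty (0.95 ± 0.09, adjusted p = 0.000276). SREBF2, the factor that drives these genes, differed by 0.08 ± 0.04 (adjusted p = 0.276), and EBP, TM7SF2 and PMVK were not called either. Without ETV1 2, 12 of the 24 were called higher.

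Fatty acid genes followed, with 13 of 18 higher with ERG, none lower and a median of 0.45. FASN, fatty acid synthase, stood at 1893 and 2232 CPM with ERG, 1099 and 1174 with ETV1 and 940 and 959 with Empty (log2 0.86 ± 0.07, adjusted p = 0.000147). SCD, the stearoyl-CoA desaturase, stood at 1858 and 2119, 1104 and 1199, and 734 and 738 CPM (0.79 ± 0.07). Both were above Empty with either construct and higher with ERG. ELOVL5 and ACSL3 had another shape: ACSL3, which activates fatty acids, stood at 394 and 395 CPM with ERG and 354 and 330 with Empty, but at 222 and 217 with ETV1 (0.85 ± 0.05, adjusted p = 1.26e-05). ELOVL5, an elongase, stood at 778 and 725 CPM with ERG, 733 and 692 with Empty and 473 and 476 with ETV1. SREBF1, which drives fatty acid genes, stood at 537 and 584 CPM with ERG and 414 and 422 with ETV1 (0.42 ± 0.06, adjusted p = 0.00167).

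Glycolysis and hypoxia genes lay on the other side: 12 of 30 were lower with ERG and 1 higher, with a median of -0.29. LDHA, lactate dehydrogenase A, stood at 767 and 695 CPM with ERG, 1014 and 1245 with ETV1 and 868 and 840 with Empty (log2 -0.63 ± 0.09, adjusted p = 0.00207). PKM, pyruvate kinase, stood at 1375 and 1273 CPM with ERG, 1621 and 1844 with ETV1 and 1361 and 1366 with Empty, and ENO1, enolase, at 1530 and 1479, 1802 and 2035, and 1536 and 1540. For LDHA both ERG libraries lay below Empty (log2 -0.22, adjusted p = 0.0862, not called), and for PKM and ENO1 they lay closer to it. The ETV1 libraries lay above Empty for all these enzymes. ETV1 2 was the higher ETV1 library for most of them: PGK1 stood at 545 CPM in ETV1 1 and 761 in ETV1 2, and the list's median against Empty was 0.21 in ETV1 1 and 0.44 in ETV1 2, with 0.09 and -0.06 in ERG 1 and 2. CA12, a membrane carbonic anhydrase, went the other way within the group, at 116 and 101 CPM, with 75.1 and 80.1 with ERG. EGLN3, a prolyl hydroxylase induced by hypoxia, was the called member higher with ERG (55.9 and 62.9 CPM against 43.6 and 43.6). The count of lower members was 6 without ERG 2 or ETV1 2, 7 without either Empty library and 20 without ETV1 1.

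**Figure D3:**
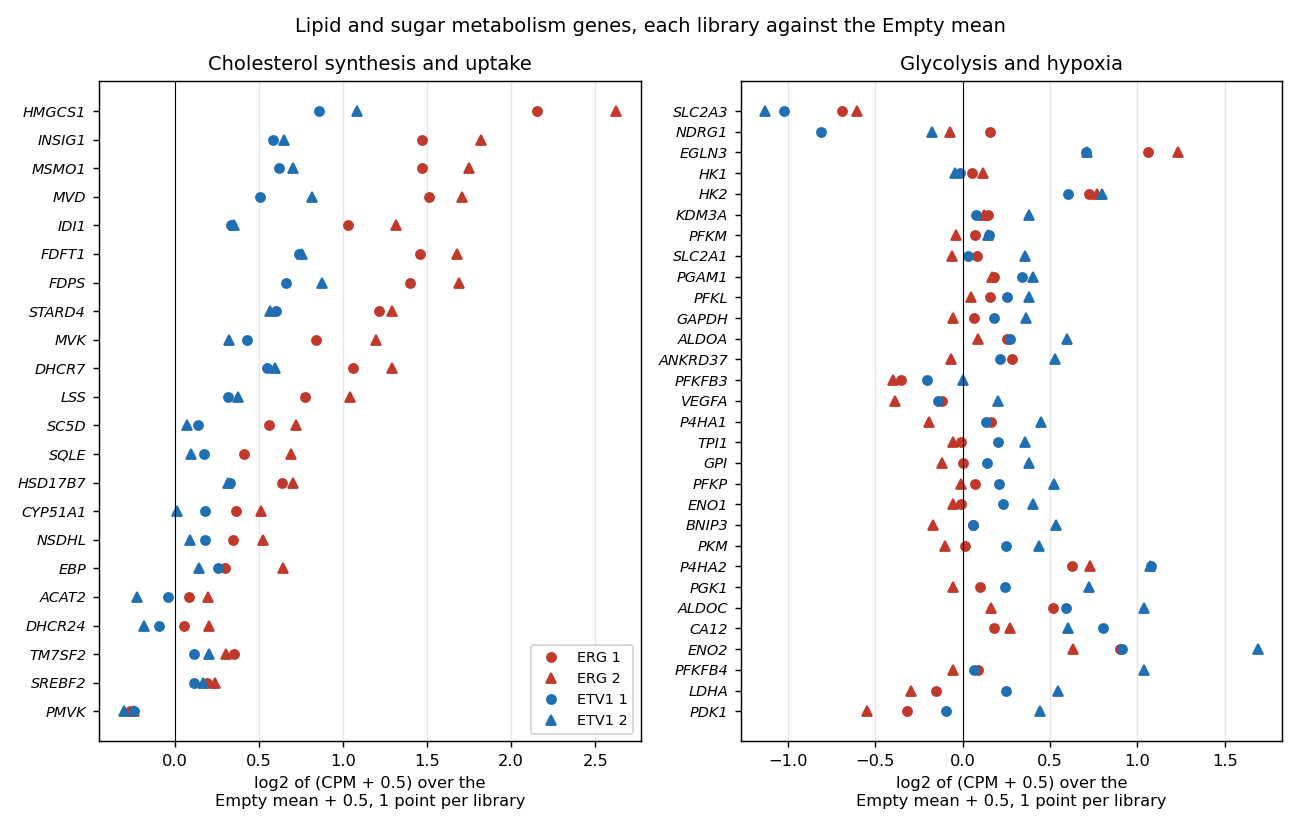
Cholesterol genes (left) and glycolysis and hypoxia genes (right), with 22 cholesterol genes drawn, each library as log2 of CPM plus 0.5 over the Empty mean plus 0.5, sorted by the fitted difference. The ERG points (red) lie right of the ETV1 points (blue) for most cholesterol genes (20 of 24 called), and the ETV1 points lie right of the ERG points for many glycolysis genes (12 of 30 called), with ETV1 2 (triangles) often farthest.

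Of 36 androgen-responsive genes, 15 were higher with ERG and 1 lower, with a median of 0.23. HERC3, a ubiquitin ligase, stood at 84.7 and 91.1 CPM with ERG, 32.0 and 28.6 with ETV1 and 85.8 and 77.8 with Empty (log2 1.54 ± 0.07, adjusted p = 6.38e-06). ELL2, an elongation factor, stood at 143 and 128, 72.6 and 67.5, and 134 and 118 CPM, and SLC45A3, prostein, at 137 and 127, 80.3 and 90.0, and 160 and 160.0. In these 3 genes the ETV1 libraries were low and the ERG libraries lay nearer to Empty. CENPN, a centromere protein, differed in shape, at 444 and 443 CPM with ERG, 216 and 222 with ETV1 and 167 and 170 with Empty. The list's median against Empty was -0.03 and -0.15 in ERG 1 and 2 and -0.63 and -0.35 in ETV1 1 and 2. The well known KLK3 and TMPRSS2 were not called: KLK3, which encodes PSA, stood at 3071 and 2621 CPM with ERG and 2592 and 3166 with ETV1, and its groups overlapped. TMPRSS2 (572 and 471 against 448 and 529 CPM) overlapped as well. HPGD, which degrades prostaglandins, was the member lower with ERG, at 1.52 and 1.59 CPM against 3.85 and 3.71. Without ETV1 1, 9 of these genes were called higher.

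Among 15 lineage factors, 5 were higher with ERG and 1 lower, by small amounts. KLF4 stood at 32.2 and 30.0 CPM with ERG, 19.6 and 20.1 with ETV1 and 20.6 and 20.9 with Empty (log2 0.65 ± 0.07, adjusted p = 0.000462). FOXA1, the pioneer factor of prostate enhancers, stood at 536 and 509 CPM with ERG, 425 and 442 with ETV1 and 438 and 458 with Empty, and HOXB13 at 421 and 436, 522 and 523, and 424 and 460. FOXA1 was thus above Empty with ERG and HOXB13 with ETV1. Without ERG 1, and likewise without ETV1 1, 3 factors were called higher.

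Of 20 genes known to be high in ERG-positive prostate tumours, 12 were higher with ERG and 1 lower, with a median of 0.61, ADGRF5 and ARHGDIB among them. PLA1A, a phosphatidylserine lipase, stood at 62.3 and 60.3 CPM with ERG, 21.0 and 20.9 with ETV1 and 22.3 and 24.2 with Empty (log2 1.55 ± 0.06, adjusted p = 2.70e-06). HLA-DMB, a chaperone of peptide loading on MHC class II, stood at 41.9 and 38.3, 13.2 and 12.7, and 7.36 and 7.96 CPM, and CRISP3, a secreted cysteine-rich protein, at 20.5 and 19.2, 10.96 and 9.05, and 8.45 and 9.48. For PLA1A and CRISP3 the ETV1 contrast with Empty was not called (log2 -0.15 and 0.16). The member lower with ERG was the potassium channel gene KCNH8, at 26.5 and 17.2 CPM with ERG, 36.4 and 50.2 with ETV1 and 62.6 and 62.8 with Empty, called no longer without ETV1 2. NCALD, GHR, VWA2, KHDRBS3, TDRD1 and AMPD3 were among those not called. The list comes from what is known of tumours and its members were chosen with earlier results of these data known.

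Intestinal-type secretory genes overlap with that list at REG4: 9 of 16 tested members were higher with ERG and 1 lower. REG4, a secreted lectin, stood at 74.5 and 64.5 CPM with ERG, 30.5 and 28.0 with ETV1 and 1.39 and 0.85 with Empty (log2 1.25 ± 0.10, adjusted p = 0.000145). LIPG, endothelial lipase, stood at 11.2 and 10.6, 3.59 and 2.86, and 0.07 and 0.14 CPM, and TFF1, a trefoil peptide of mucus, at 10.6 and 8.41, 2.88 and 3.77, and 1.22 and 1.94. These genes were above Empty with either construct and higher with ERG. AGR3, a protein disulfide isomerase of secretory cells, ran the other way, at 2.24 and 1.91 CPM with ETV1 and 0.33 and 0.31 with ERG (-2.68 ± 0.33, adjusted p = 0.000977), and its relative AGR2 was not called (25.0 and 36.6 with ERG, 52.7 and 35.7 with ETV1). The other 15 members of the list, among them the intestinal factors CDX1 and CDX2, had too few reads to be tested. Without ETV1 2, 5 members were called higher.

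Of 31 endothelial genes 20 were tested, since the others had few reads, and 6 were higher with ERG and 1 lower. Beside ADGRF5, RASIP1, a Ras-interacting protein of vessel formation, stood at 5.85 and 5.63 CPM with ERG, 0.54 and 0.77 with ETV1 and 0.37 and 0.38 with Empty (log2 3.13 ± 0.23, adjusted p = 6.63e-05). ROBO4, an endothelial guidance receptor, was the member lower with ERG, at 0.15 and 0.17 CPM against 1.96 and 0.95 with ETV1 (-3.15 ± 0.52), and its adjusted p was 0.0517 without ETV1 1. VWF stood at 60.8 and 52.3 CPM with ERG, 60.9 and 57.2 with ETV1 and 24.7 and 25.4 with Empty, and NOS3 at 60.7 and 64.4, 56.5 and 53.2, and 26.2 and 26.6. Both stood above Empty with either construct and were not called between them (adjusted p = 0.646 and 0.0595). The 8 markers of vascular endothelium summed to 63.2 and 55.0 CPM with ERG and 60.8 and 57.3 with ETV1 on plain library totals. VWF gave 2361 of 2449 and 1544 of 1613 of these reads with ERG and 2390 of 2427 and 2217 of 2249 with ETV1. Of these 8 markers 5 were tested and 3 called higher with ERG: PECAM1, with 28 and 11 reads against 3 and 1, CLDN5, with 29 and 28 against 9 and 10, and EMCN, with 20 and 19 against 6 and 3. The count was 1 without ERG 2 and 0 without ERG 1 or either ETV1 library, and 1 with DESeq2. KDR lay the other way, with 2 and 4 reads against 16 and 13, and was not called (adjusted p = 0.132). CDH5, TEK and TIE1 had 0 to 5 reads in every ERG and ETV1 library. The count of higher members among the 20 endothelial genes was 3 without ERG 1 and 2 without either ETV1 library. In bulk RNA, more cells of a type and more RNA per cell cannot be told apart.

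In the basal and hemidesmosome list 6 of 21 were higher with ERG and 2 lower. LAMA3, a chain of laminin-332, stood at 190 and 191 CPM with ERG, 132 and 117 with ETV1 and 181 and 177 with Empty (log2 0.61 ± 0.06, adjusted p = 0.000327). ITGA6, the integrin that binds that laminin, was lower with ERG, at 193 and 197 against 270 and 261 CPM, with 129 and 122 in Empty. KRT15 stood at 2.29 and 1.93 CPM with ERG and 0.31 and 0.49 with ETV1. The ligand chain was thus low with ETV1 while the receptor was above Empty with either construct and highest with ETV1.

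Of 24 ERK feedback and output genes 2 were higher (8.33%, against 7.87% of all genes) and 3 lower (12.5%, against 6.5%). The share of higher members was thus near that of all genes. DUSP4, like DUSP6 a phosphatase of ERK, stood at 796 and 665 CPM with ERG, 352 and 414 with ETV1 and 150 and 171 with Empty (log2 0.93 ± 0.10, adjusted p = 0.000562). DUSP4 and DUSP6 thus both stood above Empty with either construct, DUSP4 higher with ERG and DUSP6 higher with ETV1. HBEGF, an EGF receptor ligand, stood at 22.9 and 23.5, 15.7 and 12.2, and 7.31 and 7.28 CPM. MYC stood at 353 and 291 CPM with ERG, 408 and 428 with ETV1 and 431 and 460 with Empty, called lower with ERG (-0.37 ± 0.08) but not without ETV1 1 (adjusted p = 0.059) or ETV1 2 (0.121). SPRED2, a Ras inhibitor, was lower with ERG (47.4 and 53.9 against 73.9 and 61.8 CPM) and was not called without ERG 1 (0.0885) or ETV1 1 (0.0762). Without ETV1 1, 1 member was called lower, and without Empty 1, 4 were called higher.

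Other ETS genes differed little. Beside ERG and ETV1 themselves, SPDEF (log2 0.37 ± 0.06), ELK4 (0.31 ± 0.04) and GABPA (0.23 ± 0.06) were called higher with ERG of 24 tested, and the list's median was 0.06. SPDEF, a prostate epithelial factor, stood at 102 and 106 CPM with ERG, 75.9 and 84.9 with ETV1 and 97.1 and 103 with Empty. GABPA was not called without ERG 1 (adjusted p = 0.259) and in 4 further fits that left out 1 library. ETV4 and ETV5, the other PEA3 factors, stood at 0.08 to 1.83 CPM in the 4 libraries and were not called, and FLI1 had at most 0.41 CPM there. EHF, an epithelial ETS factor, stood at 526 and 494 CPM with ERG and 459 and 470 with ETV1 (0.14 ± 0.04, adjusted p = 0.0774).

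Matrix proteases and inhibitors held 6 higher and 4 lower members of 29. MMP10, stromelysin 2, stood at 2.83 and 2.95 CPM with ERG, 0.43 and 0.31 with ETV1 and 0.22 and 0.12 with Empty (log2 2.95 ± 0.32, adjusted p = 0.000571), while MMP7 was 5.81-fold lower with ERG. MMP16, a membrane-type protease, stood at 21.1 and 14.5 CPM with ERG, 8.36 and 8.38 with ETV1 and 21.9 and 23.1 with Empty. MMP24 (30.1 and 27.9 against 40.8 and 44.6 CPM) and the lysosomal protease CTSL (76.7 and 84.6 against 113 and 109) were lower with ERG. MMP1 and PLAU were uneven or near 0 and were not called. Without ETV1 1, 3 members were called higher.

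Guidance genes tested were 46 semaphorins, plexins, ephrins and their receptors. None was called higher with ERG by edgeR, against 7.87% of all genes. By edgeR 6 were higher at an unadjusted p under 0.05, and 3 were called higher with library totals as the scale. DESeq2 called 1 higher. Called lower with ERG were 4 (8.7%, against 6.5% of all genes). Besides SEMA6D these were NRP1, SEMA3C and SEMA5B. NRP1, the receptor of class 3 semaphorins and VEGF, stood at 237 and 216 CPM with ERG, 485 and 471 with ETV1 and 261 and 255 with Empty (log2 -1.08 ± 0.05, adjusted p = 6.38e-06). SEMA3C, a ligand of NRP1, stood at 149 and 141, 190 and 167, and 215 and 203 CPM, and was not called without ERG 2 (0.0884) or ETV1 1 (0.0804). The receptor was thus highest with ETV1 and the ligand highest with Empty. SEMA5B had 0 reads in both ERG libraries and stood at 2.09 and 2.06 CPM with ETV1.

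Of 35 mesenchymal and matrix genes 5 were higher (14.3%, against 7.87% of all genes) and 4 lower (11.4%, against 6.5%). FN1, fibronectin, stood at 1770 and 1856 CPM with ERG, 833 and 912 with ETV1 and 623 and 756 with Empty (log2 1.06 ± 0.08, adjusted p = 0.000121). TWIST1, a mesenchymal transcription factor, stood at 19.6 and 17.7 CPM with ERG, 48.0 and 57.5 with ETV1 and 26.2 and 23.2 with Empty (-1.495 ± 0.10, adjusted p = 4.73e-05), on opposite sides of Empty. COL5A2, a fibrillar collagen chain, stood at 20.1 and 18.0, 50.9 and 50.2, and 12.2 and 11.9 CPM. VIM, vimentin, stood at 110 and 127 CPM with ERG and 79.4 and 71.1 with ETV1 and was not called without ETV1 2 (adjusted p = 0.0809). The count of higher members ranged from 2 (without ETV1 2) over 3 (without ERG 1 or ERG 2) to 8 (without either Empty library).

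For cell cycle genes no difference was called, and the ERG duplicates disagreed. Of 28 mitotic genes 0 were called by edgeR in either direction (2 lower at an unadjusted p under 0.05) and 0 by DESeq2, with a median of -0.30. Of 30 replication genes 0 were called by edgeR (1 lower at an unadjusted p under 0.05) and 0 by DESeq2, with a median of -0.07. The mitotic list's median against Empty was -0.72 in ERG 1 and -0.11 in ERG 2, 0.01 in ETV1 1 and -0.28 in ETV1 2. PLK1, a mitotic kinase, stood at 35.8 and 51.0 CPM with ERG and 65.0 and 50.6 with ETV1. Without ERG 2, 22 mitotic and 11 replication genes were called lower with ERG, so these counts follow which ERG culture is used.

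**Figure D4:**
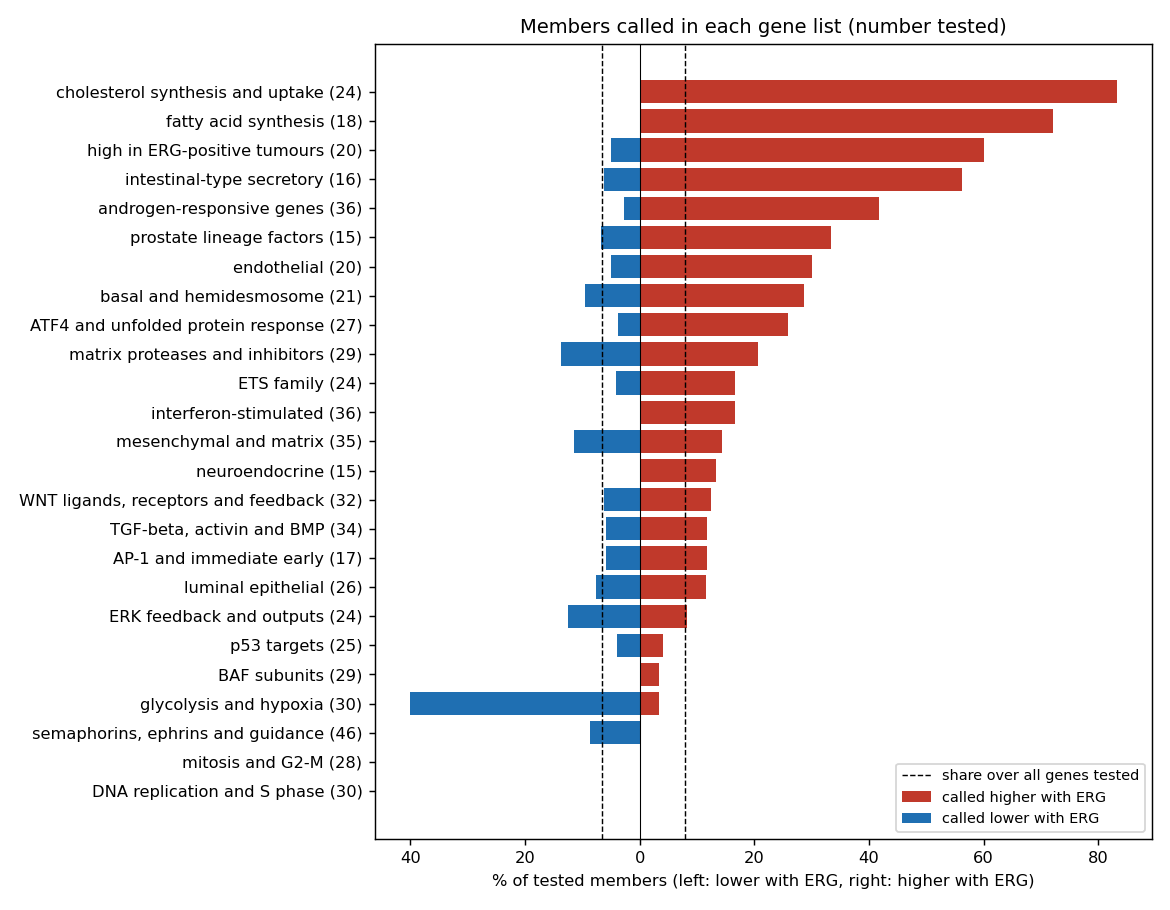
Share of each list's tested members called higher (right, red) or lower (left, blue) with ERG than with ETV1; the number tested stands in parentheses and the dashed lines mark the shares over all genes (7.87% and 6.5%). Cholesterol synthesis has the longest red bar (83.3%) and glycolysis the longest blue bar (40%).

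VCaP and SW13 libraries are not used in the LNCaP fit. In VCaP cells with shRNA against ERG, 66.7% of 16791 genes were called, 29.3% higher and 37.4% lower. Of 244 genes at least 2-fold higher with ERG in LNCaP, ERG left out, 156 were tested there, and 88 (56.4%) were lower and 35 higher when ERG was lowered. Among all genes tested in LNCaP and VCaP 37.9% were lower. Of 154 genes at least 2-fold lower with ERG, ETV1 left out, 113 were tested and 55 (48.7%) were lower and 24 higher. S100P fell by 4.56 on the log2 scale with shERG (adjusted p = 2.89e-17), ARHGDIB fell by 2.16 and PLA1A fell by 1.503. MGP, higher with ETV1 in LNCaP, fell by 2.79 as well (adjusted p = 1.50e-17), and NRP1 rose by 0.76. HERC3 rose by 0.38 and the change of HMGCS1 was -0.12 (adjusted p = 0.0838), so not all named genes moved with ERG there. Of the leading genes, PCDH12 changed by 0.56 (adjusted p = 0.0853, not called), STC1 by -0.40 (0.00521) and APOD by -0.80 (2.57e-10). TCN1, ADGRF5 and KRT75 had too few reads in VCaP to be tested. In SW13 cells whose titles give GFP as the second construct (the protocol names luciferase), added ERG changed 26% of 17018 genes, 12.6% higher and 13.5% lower. There 24 of 147 tested genes of the first set (16.3%) were higher and 11 lower, and 12 of 82 of the second (14.6%) higher and 5 lower, against 13% higher and 14.5% lower of all genes tested in both lines. PCDH12 rose by 1.05 (adjusted p = 0.0119) and RASIP1 by 0.71 (0.00421), while FASN rose by 0.25 (0.0157) and HMGCS1 changed by 0.10 (0.406). Other genes higher with ERG in LNCaP went down in SW13, among them MMP10 (log2 -0.82, adjusted p = 3.2e-09) and CENPN (-0.25, 0.0204).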

How the data were processed

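PolyA RNA of 24 libraries was sequenced as 75 base single-end reads, per the labels' protocols. The authors deposited a table per library with read counts, gene lengths (the other column, which was not tested) and RPKM values per gene. STAR 2.3.1 and hg19 are credited to the submitters' processing notes. How reads were assigned to genes, and whether by strand, is not given in the sources, so overlapping and antisense genes may share reads. The deposited RPKM values served only to compare ERG with ETV1 per length.

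Counts of the 6 LNCaP libraries were fitted together with edgeR 4.0.16 in R 4.3.3 (TMM, filterByExpr by group, quasi-likelihood F test, two-sided, 3 residual degrees of freedom, common biological coefficient of variation 0.0608), with Benjamini-Hochberg adjustment over 16993 genes and a threshold of 0.05. VCaP and SW13 were fitted alike. CPM of genes used TMM-scaled library totals, and summed marker CPM used plain library totals. Named genes are ERG, ETV1, the 15 largest called rises and falls with at least 5 CPM and no overlap, up to 6 called members per list, and members described as not called. The members and the 29 lists were chosen with earlier results of these data known. Duplicates varied beyond counting error (chi-square per degree of freedom 7.06 with ERG, 7.45 with ETV1). On simulated data for this comparison (16993 genes) 74.6%, 94% and 100% of changes of 1.5-fold, 2-fold and 4-fold were recovered. These changes were placed in 67, 67 and 66 genes, none of them among the genes of lowest CPM. Recovery of weakly read genes was thus not measured. In the simulation 23 of 202 calls were false, a larger share than the threshold of 0.05. Alternatives were RLE, library totals, no filter, DESeq2 1.42.0, only the groups compared, a replicate block, each library left out and, added after seeing the data, a robust prior and crossed pairs. Of 26346 symbols 25183 matched RefSeq. A few members of the lists are not reported here by name, nor drawn in the figures.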

Additional observations from a re-analysis of the deposited data

How the results depend on the processing

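The count of 2441 genes called between ERG and ETV1 was 2452 with RLE, 2553 with library totals, 2554 without the filter on low counts, 2166 with DESeq2, 1812 with only the groups compared and 2671 with a robust prior. With each library of the groups compared left out in turn (and, for ERG minus ETV1, each Empty library) the counts ranged from 1003 to 1707 for ERG minus ETV1, from 2632 to 3873 for ERG minus Empty, from 1987 to 3261 for ETV1 minus Empty, from 9973 to 10249 for VCaP shERG minus shCt and from 1743 to 3642 for ERG in SW13. These fits have fewer samples, and where a group is left with 1 library it is assumed to vary like the others. The replicate numbers were not treated as pairs, since the duplicates had separate infections, selections and cultures. In a later check the deviations of same-numbered libraries correlated at 0.0223, -0.0915 and -0.303 between groups. The replicate block called 1783 genes, and crossed pairs called 2656. No gene named under the rule changed direction in any alternative, and 104 to 124 of 142 stayed called with 1 library left out. With library totals the share of called genes that were higher went from 43.9% to 60.5% in VCaP, where all genes shifted by 0.183 in median log2, from 50.5% to 40% for ETV1 minus Empty and from 48.3% to 62% in SW13. Duplicates limit the precision, and changes of 1.5-fold were recovered less often than those of 2-fold and 4-fold on simulated data.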

Other observations

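Further pathways held single members with large differences. Called members of the WNT list were 12.5% higher and 6.25% lower with ERG. Those of the TGF-beta, activin and BMP list were 11.8% higher and 5.88% lower. Over all genes the shares were 7.87% and 6.5%, so the lower shares of both lists were near those of all genes. FZD4, a WNT and norrin receptor, stood at 166 and 177 CPM with ERG, 78.3 and 71.5 with ETV1 and 30.6 and 30.9 with Empty (log2 1.19 ± 0.06, adjusted p = 6.38e-06), and RNF43, which removes such receptors from the membrane, at 24.9 and 25.6, 16.9 and 17.6, and 13.4 and 13.4. Both were above Empty with either construct and higher with ERG, in a list of which 4 of 32 members were higher and 2 lower (2 higher without ETV1 2). FST, follistatin, which binds activins, stood at 2.04 and 2.68 CPM with ERG and 0.08 and 0.15 with ETV1 (4.31 ± 0.49, adjusted p = 0.00067), among 4 higher and 2 lower of 34 TGF-beta, activin and BMP genes (2 higher without either ETV1 library).

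SLC7A11, the cystine transporter, stood at 185 and 187 CPM with ERG, 99.9 and 85.8 with ETV1 and 86.9 and 80.5 with Empty (log2 1.00 ± 0.07, adjusted p = 6.12e-05). It led 7 of 27 ATF4 and unfolded protein response genes higher with ERG (3 without ETV1 2), while SHMT2, of mitochondrial serine metabolism, was lower at 226 and 211 against 271 and 301. DDC, an enzyme of amine synthesis, stood at 97.7 and 77.2 CPM with ERG, 46.2 and 50.4 with ETV1 and 113 and 136 with Empty (0.86 ± 0.12, adjusted p = 0.00197). Of 36 interferon-stimulated genes 6 were higher with ERG, among them RSAD2 at 3.35 and 2.68 against 1.45 and 1.34 CPM, but 1 was called without ERG 1, ETV1 1 or ETV1 2, and 3 without either Empty library. Of 29 BAF remodeler subunits, PBRM1 was called (170 and 173 against 146 and 153 CPM), and its call was lost whichever of the 6 libraries was left out. Of 26 luminal epithelial genes 3 were higher and 2 lower (19.2% called, against 14.4% of all genes), with 6 higher when library totals were the scale, 1 higher without ERG 1 or ETV1 2, and 0 or 1 lower without ERG 2, ETV1 1 or ETV1 2. Of 17 AP-1 and immediate early genes 2 were higher and 1 lower (17.6%), with 1 higher without either Empty library, ERG 1 or ETV1 2. Of 15 neuroendocrine genes 2 were higher and 0 lower (13.3%), with 1 higher whichever of the ERG and ETV1 libraries was left out, and 1 lower without ERG 1 or ETV1 1. Of 25 p53 targets 1 was higher and 1 lower (8%), with 7 lower without ERG 1, 0 lower without ERG 2 or ETV1 2, 4 higher without ERG 2 and 0 higher whichever other library was left out.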
